A study of Mus musculus with 4 samples.

Results

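The SOCS genes encode the suppressors of cytokine signalling, Socs1 to Socs7 and Cish, a family chosen here by gene symbol: 8 genes of the 54532 in the deposited table. SOCS proteins pair an SH2 domain, which binds phosphotyrosine, with a C-terminal SOCS box that recruits elongins B and C and cullin 5 into a ubiquitin ligase. Cytokine receptors act through JAK kinases and STAT transcription factors. STATs induce several SOCS genes, whose products then block JAKs or receptors, so the family closes a negative feedback loop. In macrophages, SOCS1 is known for restraining interferon and Toll-like receptor responses and SOCS3 for restraining interleukin 6 receptor signalling.

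RNA from bone marrow-derived macrophages of C57BL/6 mice aged 6 to 8 weeks was sequenced. Marrow cells of femur and tibia had grown for 6 days in medium with 10% serum and 20% L929-conditioned medium, a source of macrophage colony-stimulating factor. All mice carried loxP-flanked Fbxw7 alleles (FBXW7f/f). By the series' design text, the title WT stands for these alleles alone and the title KO for the same alleles with LysM-cre, a Cre recombinase driven from the myeloid lysozyme gene Lyz2. Fbxw7 encodes a substrate receptor of another ubiquitin ligase. Cells were untreated or received lipopolysaccharide (LPS), the bacterial ligand of TLR4, for 3 h. The 4 groups (WT, KO, WT with LPS, KO with LPS) held 1 library each, with 17610372 to 23835940 counts, and values are given below in that order. No label gives the LPS dose or says how many mice each library came from. No group has a replicate, so p-values rest only on how far these libraries depart from the fitted model. That departure may be technical.

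The titles of the libraries were in doubt. Genotype tags put FBXW7f/f on both untreated libraries and LysM-cre FBXW7f/f on both LPS libraries, which goes against the titles of the untreated KO and the LPS-treated WT library. Lyz1, a neighbour of Lyz2 named as a check, had 2.86, 32.9, 33.1 and 2.63 CPM (counts scaled to library size by the TMM method). Lyz2, the gene that carries LysM-cre, had 15253, 8711, 9917 and 18238 CPM. In both treatments the pair of libraries differed, with Lyz2 lower and Lyz1 higher in the library titled KO when untreated and in the library titled WT after LPS. Fbxw7, the targeted gene, had 17.9, 17.2, 9.90 and 11.7 CPM, so the libraries titled KO did not show a clear loss of it, although gene-level counts do not show the loss of an exon. LPS responses are therefore also given against the untreated library of the other title. If the tags hold, every pairing of an LPS with an untreated library, within or across titles, also compares genotypes. LPS and genotype could then not be told apart. If Lyz1 and Lyz2 follow genotype instead, the ratios across titles compare libraries of like genotype. Comparisons of KO with WT titles would then point opposite ways before and after LPS. Which case holds was not tested. All 8 macrophage markers examined were measured, at a summed 15420 to 25909 CPM, of which Lyz2 alone supplied 8711 to 18238 CPM. Of the other markers, 1 of 8 for neutrophils, 2 of 7 for T cells, 1 of 5 for B cells, 1 of 5 for dendritic cells, 1 of 5 for mast cells and none of those for fibroblasts or erythroid cells averaged at least 1 CPM. Those lists summed to 3.18 to 10.8, 29.7 to 62.0, 9.96 to 31.6, 1.77 to 13.2, 0.272 to 4.13, 1.27 to 3.18 and 0.0454 to 0.466 CPM. T cell and dendritic cell sums were higher in both LPS libraries (55.6 and 62.0 CPM, 13.2 and 9.36 CPM) than in both untreated ones (29.7 and 36.3 CPM, 1.77 and 2.28 CPM), and their part in the results was not tested. Mcpt4, Cma1, Hbb-bs and Hbb-bt had 0 counts in every library. In bulk RNA, fewer cells of a type and less RNA per cell cannot be told apart.

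After LPS, the family split. Socs3, Socs1, Cish and Socs7 rose, Socs5 fell, and Socs4, Socs6 and Socs2 did not pass the test. In edgeR's quasi-likelihood test of an additive model of title and treatment over all 4 libraries, the adjusted p (Benjamini-Hochberg over 13989 genes) was under 0.05 for 4 of 8 members rising and 1 of 8 falling, and all 8 passed the model's filter on low counts. Over all genes tested, 9.7% rose and 6.2% fell. This model has 1 residual degree of freedom, and ± marks its standard error, taken from the F statistic. The same 5 members passed when treatment alone was fitted, without use of the titles, where 16.1% of genes rose and 16.5% fell. That fit takes libraries of unlike title as replicates of a treatment. It uses the same 4 libraries, so it is no independent check. Between 2 libraries there is no replicate check and no p-value. There, a call needs a ratio of at least 2 in either direction (with a prior count of 2) and a 95% counting interval without 1, and the intervals in brackets cover counting error only.

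Socs3 was the most abundant member after LPS. The protein it encodes binds the shared receptor chain gp130 and inhibits JAK kinases. It had 8.44 and 7.45 CPM untreated (186 and 206 counts) and 1157 and 1001 CPM after LPS (19865 and 16357 counts). Both LPS libraries stood far above both untreated ones, and libraries of the same treatment lay close together. The LPS level was 137-fold (119 to 159) higher in the libraries titled WT and 134-fold (117 to 155) higher in those titled KO. Against the untreated library of the other title the ratios were 155 (135 to 179) and 119 (103 to 138). The additive model gave a rise of 7.08 ± 0.35 log2 units (edgeR adjusted p = 0.00234). By log2 ratio, Socs3 ranked 27th from the top of 12326 measured genes in the libraries titled WT and 18th in those titled KO.

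Socs1, whose product blocks the catalytic site of JAK kinases through a kinase inhibitory region, had 3.04 and 2.49 CPM untreated (67 and 69 counts). After LPS it had 333 and 484 CPM (5717 and 7909 counts). The 2 treatments did not overlap, and the LPS library titled KO was the highest of the 4. Levels were 109.6-fold (86.1 to 142) and 194-fold (153 to 249.6) higher after LPS within the titles WT and KO, and 133-fold (105 to 172) and 159-fold (125 to 206) higher across titles. Socs1 rose by 7.19 ± 0.38 log2 units (edgeR adjusted p = 0.00234). It ranked 40th in the libraries titled WT and 15th in those titled KO.

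Cish encodes CIS, a family member induced by STAT5 that dampens signalling of receptors using STAT5. Its untreated levels were low, at 0.454 and 0.615 CPM (10 and 17 counts), and its LPS levels were 30.3 and 21.8 CPM (521 and 357 counts). Every LPS value exceeded every untreated value, and the untreated counts set the width of the intervals. The ratios were 66.9 (36.1 to 140.3) within the WT title and 35.5 (21.9 to 61.7) within the KO title, and 49.4 (30.5 to 85.4) and 48.2 (25.9 to 101) across titles. Cish rose by 5.56 ± 0.42 log2 units (edgeR adjusted p = 0.00325). Gm17040 and Gm17041 overlap Cish on the opposite strand. Whether counting used strand is not stated in the labels, and both genes together had 2 counts over the 4 libraries.

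Socs7, which encodes a family member with a long N-terminal region and links to insulin signalling, rose less from a higher start. It had 21.7 and 21.4 CPM untreated (479 and 592 counts) and 88.2 and 139 CPM after LPS (1514 and 2265 counts). The untreated libraries were alike and the LPS library titled KO stood above that titled WT. Its ratios were 4.06 (3.66 to 4.51) and 6.47 (5.91 to 7.10) within titles and 4.12 (3.74 to 4.54) and 6.38 (5.78 to 7.06) across them. The additive effect was 2.36 ± 0.26 log2 units (edgeR adjusted p = 0.00670).

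**Figure D1:**
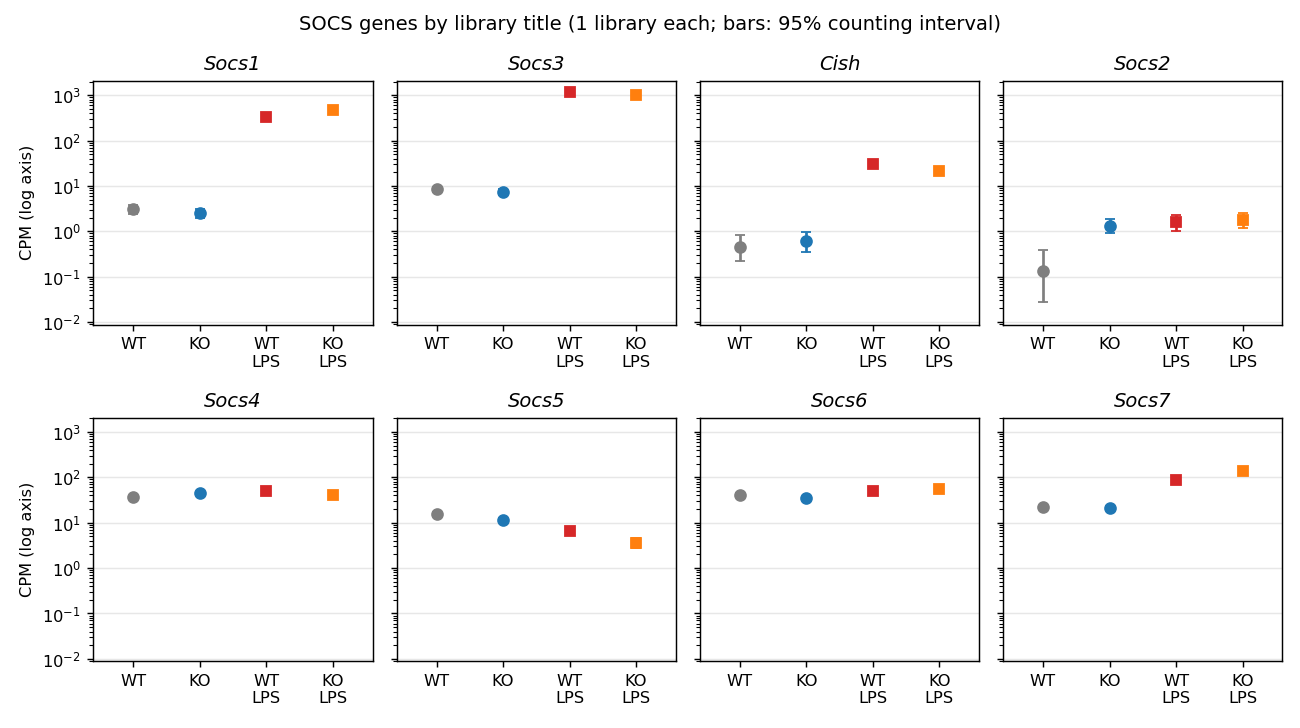
Level of each SOCS gene (TMM-normalized CPM, log axis) per library title, untreated libraries as circles, LPS libraries as squares and 95% counting intervals as bars, hidden where narrower than the symbol. Socs1, Socs3 and Cish lie well apart between treatments (Socs3 at 8.44 and 7.45 against 1157 and 1001 CPM), whereas Socs2 is low in the untreated library titled WT alone (0.136 CPM).

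The sequence upstream of the LPS-responsive members is shown because these genes moved together and SOCS genes are classic targets of STATs and interferon regulatory factors. RefSeq (GRCm38.p6) promoter windows, from 250 bases before to 50 after the transcript start, matched 4 of the 8 members: Socs1, Socs3, Cish and Socs4, the last of which did not pass the test. Windows were searched on both strands for 3 motifs. These were the STAT motif GAS (TTCNNNGAA), the interferon motif ISRE (GAAA, then NN, then GAAA) and the NF-kB consensus. The bases shown for Socs1 (chr16:10785537-10785786, minus strand), Socs3 (chr11:117969367-117969616, minus strand) and Socs4 (chr14:47276670-47276919, plus strand) are the 250 before the RefSeq start, 5′ to 3′. For Cish, 30 bases around the start are shown (chr9:107296654-107296683, plus strand), which lie in the first exon of a longer GENCODE transcript. Capitals mark motif matches.
Socs1: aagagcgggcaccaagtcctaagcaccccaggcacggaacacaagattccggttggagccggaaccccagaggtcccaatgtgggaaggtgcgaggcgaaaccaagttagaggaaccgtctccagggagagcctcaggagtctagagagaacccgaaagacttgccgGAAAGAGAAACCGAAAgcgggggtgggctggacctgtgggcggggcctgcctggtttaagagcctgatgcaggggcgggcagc
Socs3: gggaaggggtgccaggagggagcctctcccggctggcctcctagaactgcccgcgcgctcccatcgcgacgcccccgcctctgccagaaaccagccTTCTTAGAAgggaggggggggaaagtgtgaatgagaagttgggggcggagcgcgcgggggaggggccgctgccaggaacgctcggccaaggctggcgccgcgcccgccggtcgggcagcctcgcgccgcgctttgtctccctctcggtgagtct
Cish: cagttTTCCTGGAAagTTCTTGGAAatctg
Socs4: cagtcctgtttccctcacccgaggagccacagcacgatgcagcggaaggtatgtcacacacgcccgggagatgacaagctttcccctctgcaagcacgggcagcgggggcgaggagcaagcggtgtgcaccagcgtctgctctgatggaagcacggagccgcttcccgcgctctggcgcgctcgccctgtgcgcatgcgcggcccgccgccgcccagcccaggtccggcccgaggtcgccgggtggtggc
Socs1 held 2 overlapping ISRE matches, GAAAGAGAAA from −83 to −74 and GAAACCGAAA from −77 to −68, counted from the RefSeq start. Cish held 2 GAS matches, TTCCTGGAA at positions 1 to 9 and TTCTTGGAA at 12 to 20, and Socs3 had 1, TTCTTAGAA from −154 to −146. None of the 3 motifs occurred in the Socs4 window, and the NF-kB consensus occurred in none of the 4. Of all 32851 windows of 300 bases, 3.44% held at least 1 ISRE match and 0.225% at least 2, 8.3% held at least 1 GAS match and 0.457% at least 2, and 8.46% held the NF-kB consensus. A match describes letters in this window and is no evidence of binding. The Socs3 bases shown lie upstream of the start of its coding GENCODE transcript, and the window overlaps an exon of a noncoding Socs3 transcript.

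Socs5, encoding a member linked to epidermal growth factor receptor and interleukin 4 signalling, was the 1 member that fell. It had 15.6 and 11.5 CPM untreated (344 and 317 counts) and 6.46 and 3.61 CPM after LPS (111 and 59 counts). Both LPS libraries were below both untreated ones. Its level was 2.41-fold (1.94 to 3.02) lower after LPS in the libraries titled WT and 3.17-fold (2.40 to 4.27) lower in those titled KO. The additive model put it at −1.46 ± 0.34 log2 units (edgeR adjusted p = 0.0444), close to the threshold. With scaling factors taken from the filtered genes edgeR's adjusted p was 0.0505, and with treatment alone it was 0.0908 without the untreated library titled WT and 0.0855 without the LPS library titled KO. It stayed below 0.05 in 8 of the 11 settings of edgeR, DESeq2 and limma-voom that were run (0.00304 to 0.0908). Across titles the ratios were 0.564 (0.450 to 0.702) and 0.231 (0.172 to 0.306), the first short of 2-fold.

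Socs4 and Socs6 were the most abundant members per length before LPS, and neither passed the test. Socs4, a relative of Socs5, had 36.6, 45.9, 49.6 and 40.6 CPM (808, 1269, 852 and 664 counts). It was 1.35 times (1.23 to 1.49) the untreated level after LPS in the libraries titled WT and 0.885 times (0.805 to 0.973) in those titled KO. The ratios across titles were 1.08 (0.990 to 1.18) and 1.11 (0.999 to 1.23), so the opposite directions rest on the titles. With library totals in place of TMM, both within-title log2 ratios were below 0 (−0.17 and −0.64). Socs6, whose product is known to bind the receptor Kit and insulin receptor substrates, had 41.7, 35.4, 51.2 and 54.0 CPM (919, 978, 879 and 883 counts). Both LPS values of Socs6 exceeded both untreated values, by 1.23-fold (1.12 to 1.35) in the WT title and 1.53-fold (1.39 to 1.68) in the KO title. With library totals its log2 ratio was −0.31 in the WT title and 0.14 in the KO title, so its direction depended on the scaling. Effects in the additive model were 0.13 ± 0.24 log2 units for Socs4 (edgeR adjusted p = 0.732) and 0.45 ± 0.21 for Socs6 (edgeR adjusted p = 0.200).

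Socs2, best known as the inhibitor of growth hormone receptor signalling, had the fewest counts of the family in 3 of the 4 libraries. Its 3, 37, 27 and 29 counts correspond to 0.136, 1.34, 1.57 and 1.77 CPM. The untreated library titled WT stood apart below the other 3, which did not differ from each other beyond counting error. The LPS ratio was thus 11.6 (3.56 to 59.5) within the WT title and 1.33 (0.787 to 2.22) within the KO title. Across titles it was 1.18 (0.688 to 1.98) for the LPS library titled WT and 13.0 (4.04 to 66.9) for that titled KO. The additive effect was 1.63 ± 0.88 log2 units (edgeR adjusted p = 0.256). With treatment alone and without the untreated library titled KO, the effect was 3.59 log2 units (edgeR adjusted p = 0.0239). Without the untreated library titled WT it was 0.33 (edgeR adjusted p = 0.748). The mast cell marker list, of which Kit alone averaged at least 1 CPM, had a similar order, with sums of 0.272, 2.75, 4.13 and 3.55 CPM, and its part in the Socs2 values was not tested.

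**Figure D2:**
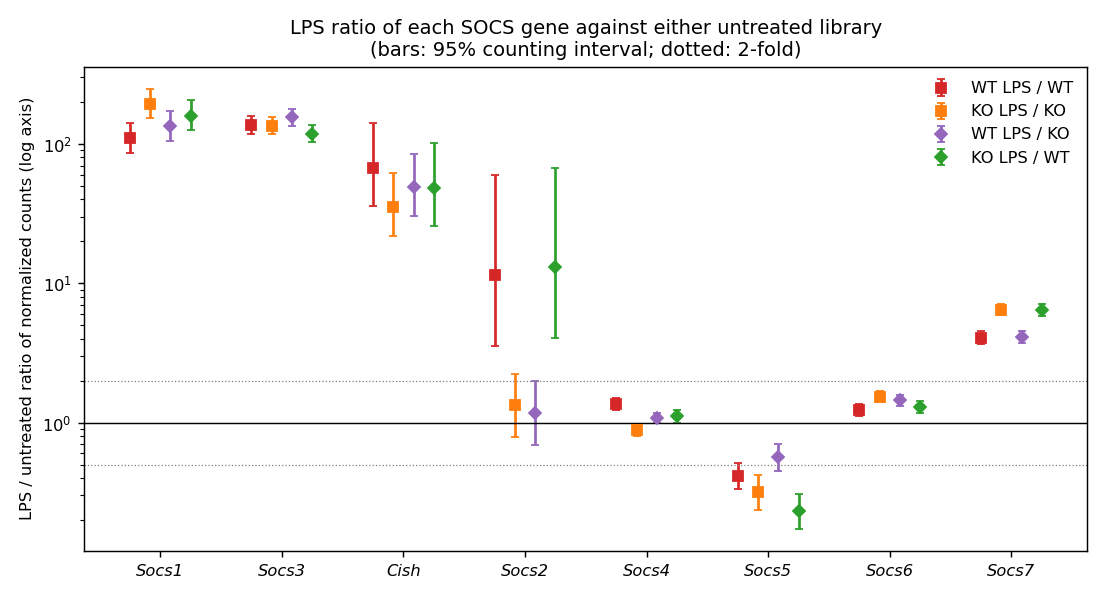
Ratio of normalized counts, LPS over untreated (log axis), for each SOCS gene within titles (squares) and against the untreated library of the other title (diamonds), with 95% counting intervals. Socs1, Socs3 and Cish lie at 35.5 or more in every pairing and Socs7 between 4.06 and 6.47, whereas Socs2 lies at 1.18 and 1.33 against one untreated library and at 11.6 and 13.0 against the other.

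Counted over the family in the libraries titled WT, 5 of 8 members were called higher and 1 lower, where 15.4% and 15.0% of 12326 measured genes were called higher and lower. In the libraries titled KO, 4 were higher and 1 lower, against 14.6% and 17.8% of all genes. The member present in the first count alone was Socs2. Across titles, 4 members were called in the LPS library titled WT against the untreated library titled KO, and 6 in the reverse pairing, where 28.6% and 29.8% of all genes were called. The family's median log2 ratio was 2.43 in the WT title and 1.65 in the KO title, beside −0.015 and −0.074 over all measured genes. The WT median lies midway between Socs7 (2.02) and Socs2 (2.85, on 3 untreated counts). The KO median lies midway between Socs6 (0.61) and Socs7 (2.69), with no member in between. When libraries were scaled by their totals instead, the median of all genes shifted by −0.60 in the WT title and −0.46 in the KO title, and the share of called genes that were higher went from 50.7% to 22.2% and from 45.0% to 22.6%. Socs1, Socs3, Socs7 and Cish were called higher and Socs5 lower in both titles with library totals too.

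Compared per length, in the deposited FPKM values (fragments scaled by gene length and by a factor per library), the order of the family changed with treatment. Between libraries, these values carry a scaling like DESeq2's size factors and not one by library totals. With FPKM and a pseudocount of 1, the median log2 LPS ratio of all measured genes in the WT title was 0.015. It was 0.021 with those size factors and −0.62 with library totals. In the untreated library titled WT, Socs4 (5.22 FPKM) and Socs6 (4.96 FPKM) came first and did not differ beyond counting error. Socs5 (3.48 FPKM), Socs7 (2.93 FPKM) and Socs3 (2.86 FPKM) followed, each overlapping its neighbour, ahead of Socs1 (1.02 FPKM), and Cish (0.0692 FPKM) and Socs2 (0.0140 FPKM) overlapped at the end. In the untreated library titled KO the order was Socs4 (6.43 FPKM), Socs6 (4.14 FPKM), Socs7 (2.84 FPKM), Socs5 (2.52 FPKM), Socs3 (2.48 FPKM), Socs1 (0.827 FPKM), Socs2 (0.135 FPKM) and Cish (0.0923 FPKM). There, Socs7, Socs5 and Socs3 overlapped as neighbours, as did Socs2 and Cish.

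After LPS, Socs3 (402 FPKM titled WT, 356 FPKM titled KO) and Socs1 (115 and 171 FPKM) led, followed by Socs7 (12.2 and 19.6 FPKM). Socs4 (7.24 and 6.07 FPKM) and Socs6 (6.25 and 6.75 FPKM) came next and overlapped in the library titled KO alone. Cish (4.75 and 3.49 FPKM), Socs5 (1.48 and 0.844 FPKM) and Socs2 (0.166 and 0.191 FPKM) closed the order in both. Summed over the 8 genes, the family had 20.6, 19.5, 549 and 563 FPKM. Socs1 and Socs3 together made up 18.9% and 17.0% of that sum in the untreated libraries and 94.2% and 93.4% in the LPS libraries. The other 6 genes summed to 16.7, 16.2, 32.1 and 36.9 FPKM.

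**Figure D3:**
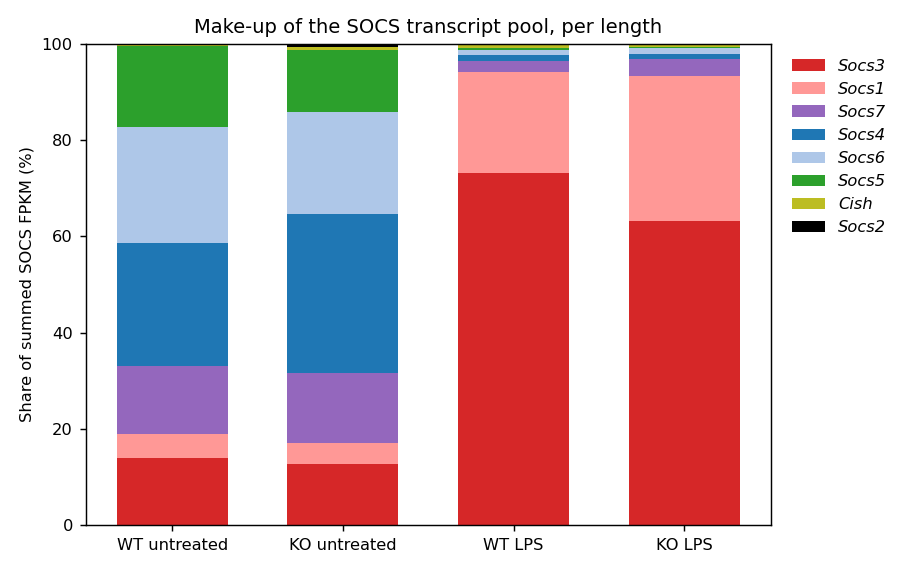
Share of the summed FPKM of the 8 SOCS genes (percent, stacked bars) taken by each gene in each of the 4 libraries. Socs4 and Socs6 hold 25.4% and 24.1% in the untreated library titled WT, whereas Socs3 and Socs1 hold 73.2% and 20.9% in the LPS library titled WT and 63.1% and 30.3% in that titled KO.

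Gene coordinates are those of the authors' table (mm10). Socs1 (ENSMUSG00000038037, chr16:10782240-10785536, minus strand) and Socs3 (ENSMUSG00000053113, chr11:117966079-117970047, minus strand) are short genes whose 212 and 225 codons lie in 1 coding exon. Cish (ENSMUSG00000032578, chr9:107296026-107302784, plus strand) has 257 codons in 3 coding exons, and Socs2 (ENSMUSG00000020027, chr10:95385362-95417180, minus strand) 198 in 2. The long members include Socs7 (ENSMUSG00000038485, chr11:97362551-97398542, plus strand), with 579 codons in 9 coding exons. Socs4 (ENSMUSG00000048379, chr14:47276931-47296102, plus strand), Socs5 (ENSMUSG00000037104, chr17:87107679-87137583, plus strand) and Socs6 (ENSMUSG00000056153, chr18:88665224-88927481, minus strand) carry 436, 536 and 533 codons in 1 coding exon each. Coding exons and codons are of the longest coding transcript in GENCODE M21.

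Comparison by title asked whether loss of Fbxw7 went with SOCS expression, and here the doubt about the titles bears on every value. No gene passed edgeR's quasi-likelihood test for title across all 4 libraries (0 of 13989, 0.0%, at an adjusted p under 0.05). At an unadjusted p under 0.05 there were 39, and DESeq2 and limma-voom also called 0. A title difference that reverses between treatments, as that of Lyz1 did, counts as error in the additive model. The test could not find such a difference, so the 0 does not show that titles were alike. Among the 8 members the unadjusted edgeR p ran from 0.114 for Socs5 to 0.940 for Socs4. In the untreated libraries 1 member was called, where 5.18% of all genes were. This was Socs2, at 9.83 times (3.11 to 49.8) the level titled WT, on 37 against 3 counts. After LPS no member was called, where 8.23% of all genes were.

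Within those limits, several members differed between libraries by more than counting error but less than 2-fold. Such intervals narrow as counts rise. The share of all genes that differed so is not given, so this is no result about the family. After LPS, Socs1 was 1.45 times (1.40 to 1.50) and Socs7 1.57 times (1.47 to 1.68) as high in the library titled KO, while untreated ratios were 0.821 (0.578 to 1.17) and 0.985 (0.872 to 1.11). Socs3 had ratios of 0.883 (0.721 to 1.08) untreated and 0.865 (0.847 to 0.883) after LPS, and Cish 1.36 (0.586 to 3.31) and 0.720 (0.628 to 0.825). Socs5 was lower in the library titled KO at both treatments, by 1.36-fold (1.17 to 1.59) untreated and 1.79-fold (1.29 to 2.50) after LPS. Socs4 ratios were 1.25 (1.15 to 1.37) untreated and 0.819 (0.739 to 0.907) after LPS, and those of Socs6 0.848 (0.775 to 0.929) and 1.06 (0.960 to 1.16). With 1 library a group, these values compare libraries and not conditions.

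The LPS response, as a ratio of ratios with a prior count of 2, was called different between titles for 1 of 8 members, where 18.1% of all genes were. Socs2 had 0.182 times (0.0629 to 0.524) the response in the KO title. Short of a call, Socs1 and Socs7 had larger responses there, by 1.76-fold (1.26 to 2.45) and 1.59-fold (1.39 to 1.83). The response of Socs6 was also larger there, by 1.24-fold (1.09 to 1.42). Socs4, also short of a call, had a smaller one, 0.655 times (0.572 to 0.749). For Socs3 at 0.979 (0.802 to 1.19), Socs5 at 0.767 (0.543 to 1.09) and Cish at 0.557 (0.267 to 1.16), the intervals included no difference.

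The pathway around the SOCS genes is described from gene lists. Among the cytokine ligands that signal through JAKs and STATs, 8 of 12 tested genes rose and none fell, with a median additive effect of 3.06 log2 units (−0.087 over all genes tested). The count and median only describe the genes that passed the filter, since several, such as Il6, Il12b and Ifnb1, passed it through the LPS libraries in which they are high. Over all genes tested, 9.7% rose and 6.2% fell, shares that stand beside the counts of each list. The lists were chosen with earlier results of these data known, so their counts only describe them and test nothing. Il6, which acts through gp130, the receptor chain that SOCS3 binds, had 0.136, 0.145, 160.4 and 136 CPM. Ifnb1, encoding interferon beta, had 0.0454, 0.289, 52.9 and 76.9 CPM, and Il12b, encoding a subunit of interleukins 12 and 23, had 0 and 0.0362 CPM untreated against 34.5 and 37.2 CPM. All 3 rose (edgeR adjusted p = 0.00234, 0.00234 and 0.00238). Il4 and Osm, the lowest of the list, did not pass (−1.21 ± 0.50 and −0.38 ± 0.41 log2 units).

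Of the receptors, 6 of 26 tested rose and 2 fell, the latter a share near that of all genes. The median of the list was 0.20 log2 units. As with the ligands, count and median only describe the genes that passed the filter. Osmr, among the 6, had 1 count in each untreated library and passed it through the LPS libraries (71 and 37 counts). Il15ra, the interleukin 15 receptor alpha chain, rose by 4.64 ± 0.25 log2 units and Il2ra, the interleukin 2 receptor alpha chain, by 3.89 ± 0.65 (edgeR adjusted p = 0.00234 and 0.0187). Il6ra, the interleukin 6 binding chain, was among the 2 that fell. It had 129, 93.0, 17.5 and 20.3 CPM and its level fell by 2.54 ± 0.27 log2 units (edgeR adjusted p = 0.00563), as did Lifr, the leukaemia inhibitory factor receptor, by 1.97 ± 0.32 (edgeR adjusted p = 0.0165).

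Of the 11 JAK and STAT genes, 5 rose and none fell (median 0.80 log2 units). Jak2, a kinase that SOCS1 inhibits, had 40.7, 41.9, 720.1 and 546 CPM and rose by 3.93 ± 0.30 log2 units (edgeR adjusted p = 0.00317). Stat5a, of the STAT5 pair that induces Cish, had 20.0, 17.8, 133 and 109 CPM and rose by 2.67 ± 0.22, and Stat3, which acts downstream of gp130, rose by 1.68 ± 0.25 (edgeR adjusted p = 0.00369 and 0.0133). Jak1, Tyk2 and Stat6 did not pass, at 0.52 ± 0.24, 0.31 ± 0.21 and −0.59 ± 0.26 log2 units. Among known STAT targets other than SOCS genes, 8 of 17 rose and none fell (median 1.36), led by Ifit1, Gbp2 and Isg15, all interferon-inducible, at 5.81 ± 0.47, 4.83 ± 0.32 and 4.42 ± 0.33 log2 units.

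Of the inhibitors of the pathway outside the SOCS family, 4 of 13 rose and 1 fell, with a median of 0.23 log2 units. Usp18, which restrains the type I interferon receptor, rose by 3.28 ± 0.28 log2 units, and the tyrosine phosphatases Ptpn2 and Ptprc rose by 1.82 ± 0.21 and 1.74 ± 0.30 (edgeR adjusted p = 0.00372, 0.00686 and 0.0211). Cbl, a ubiquitin ligase, fell by 0.92 ± 0.22 log2 units (edgeR adjusted p = 0.0470).

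The list of ligase components held the elongins, Cul5 with its partner Rnf7, and Cul2 with its partner Rbx1, which are better known from the ligase of VHL. Of these, 0 of 6 passed edgeR's test, with a median of 0.33 log2 units. Eloc, encoding elongin C, was the highest at 0.88 ± 0.24 (edgeR adjusted p = 0.0628), and Cul5, encoding cullin 5, the lowest at −0.12 ± 0.22. Among other genes with a SOCS box, 2 of 18 rose and 2 fell (median −0.042), shares near those of all genes. Spsb1 and Asb13 rose by 1.68 ± 0.25 and 1.03 ± 0.25 log2 units (edgeR adjusted p = 0.0137 and 0.0491), and Rab40c and Spsb2 fell by 1.86 ± 0.28 and 1.78 ± 0.28 (edgeR adjusted p = 0.0143 and 0.0152). Of 10 reported SOCS substrates, 1 rose and 1 fell (median −0.15): Rela, the p65 subunit of NF-kB, rose by 1.92 ± 0.25 and Insr, the insulin receptor, fell by 1.20 ± 0.22 (edgeR adjusted p = 0.0101 and 0.0229).

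**Figure D4:**
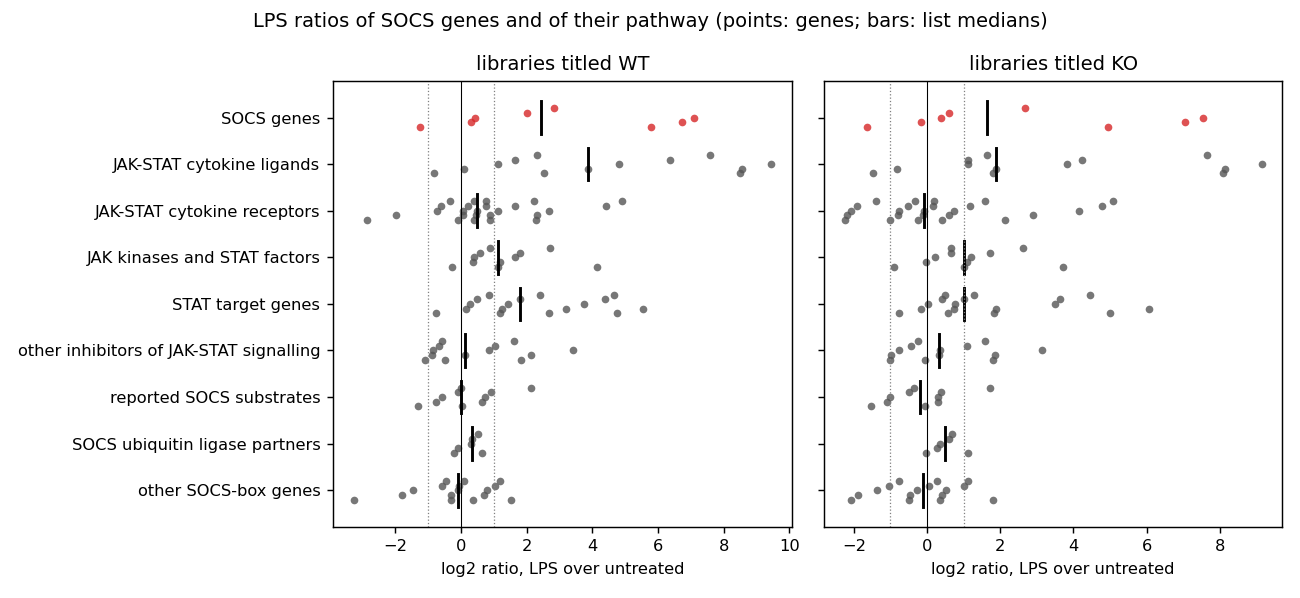
Log2 ratio of LPS over untreated for each measured gene (points) of the SOCS family and the pathway lists, with bars at list medians, in the libraries titled WT and KO. The SOCS genes have medians of 2.43 and 1.65 and the ligase partners (elongins, cullins and their RING partners) 0.33 and 0.48, both plotted on the same axis with dotted lines at 2-fold.

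The genes most like each member in pattern were found by the root mean square difference of centred log2 CPM over the 4 libraries, among 9386 protein-coding genes. For Socs3 they were Acod1 (0.212) and Il1a (0.229), at 60.9, 73.9, 7740 and 7311 CPM and 1.09, 0.832, 148 and 91.4 CPM. For Socs1 they were Cd69 (0.257) and Socs3 (0.269), and for Cish Gja1 (0.148) and Kcna3 (0.155). Few genes had these steep patterns: 2, 0 and 4 lay within 0.25 log2 units of Socs3, Socs1 and Cish. Socs7 was closest to Zfp40 (0.0673) and Rbms2 (0.0910), with 93 genes within 0.25, and Socs5 to Fam193b (0.0974) and Rad1 (0.112), with 76. Socs2 had no gene that near, with Irf7 (0.345) and Dusp5 (0.385) closest, both also low in the untreated library titled WT (136 CPM for Irf7 and 7.85 CPM for Dusp5, against at least 606 and 23.7 CPM elsewhere). Socs4 and Socs6 had patterns shared by many genes, 2818 and 2449 within 0.25, closest being 2010111I01Rik (0.0144) and Rbm34 (0.0212) for Socs4 and Creb3 (0.0181) and C9orf72 (0.0194) for Socs6. These are descriptions over 4 points that share libraries and scaling.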

How the data were processed

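RNA of 4 libraries was measured, 1 for each combination of title (WT, KO) and treatment. Libraries were made from poly-A RNA with a NEBNext Ultra kit, per the labels' protocols. HISAT2 2.0.5 and mm10 are named in the submitters' processing notes. Neither the counting program nor its use of strand is stated there. The authors deposited 1 table of 54532 genes with raw read counts and FPKM values per library. The FPKM values were used as deposited by the authors, for comparisons between genes. Left unused were 8 further columns with values per sample. Groups were taken from the titles.

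Counts were scaled by TMM on all genes. The common LPS and title effects were tested with edgeR 4.0.16 (filterByExpr, quasi-likelihood, additive model, Benjamini-Hochberg). The approach was run on simulated counts with known LPS folds and no difference between titles. That run does not show how the test behaves where titles differ, as in these libraries. Ratios of single libraries used log2 CPM with a prior count of 2, genes with a mean of at least 1 CPM and exact 95% binomial counting intervals. PCR reads carry no molecular identifiers here, so intervals cover counting error only. Intervals of differences of responses were normal approximations on counts. Alternatives were DESeq2 1.42.0, limma 3.58.1, other scaling factors, filters, prior counts, FPKM with a pseudocount of 1, treatment alone and libraries left out. R 4.3.3, Python 3.11.15, SciPy 1.17.1 and matplotlib 3.10.9 were used.

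All 8 members are named. From each list at most the 3 highest and 3 lowest LPS ratios (mean of the titles, mean of at least 1 CPM) are named. The lists were ligands, receptors, JAKs and STATs, other inhibitors, ligase partners, other SOCS-box genes, STAT targets, reported substrates and cell type markers. Genes of like pattern had a mean of at least 5 CPM. Members and lists were chosen with earlier results of these data known.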

Additional observations from a re-analysis of the deposited data

Results flagged for a closer look

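The LPS response of Socs2 differed between the titles, with a log2 response lower by −2.46 in the libraries titled KO than in those titled WT (11.6-fold on 27 against 3 counts, and 1.33-fold on 29 against 37 counts). The interval of that difference excluded 0 by counting error alone, and there is no replicate test of it. Socs4 moved in opposite directions, at 1.35 times the untreated level in the libraries titled WT and 0.885 times in those titled KO, a difference of −0.61 in log2 response. This difference was not tested over replicates. Against the untreated library of the other title the Socs4 ratios were 1.08 and 1.11.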

How the results depend on the processing

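No paired analysis was possible because the labels carry no replicate numbers. Title is a term of the additive model, and treatment alone gives the fit without it. With FPKM and a pseudocount of 1, fewer genes were called: 2269 in place of 3747 for LPS in the WT title, 2279 in place of 3992 in the KO title, 229 in place of 639 between untreated libraries, 370 in place of 1014 between LPS libraries and 1108 in place of 2228 for the difference of responses. Under FPKM, 0 SOCS genes in place of 1 (Socs2) were called between untreated libraries and 0 in place of 1 (Socs2) for the difference of responses, and Socs5 was not called in either title (−0.85 and −0.93 log2 units). Socs2 lost its LPS call in the WT title (0.20 in place of 2.85 log2 units), leaving 4 SOCS genes called in each title. All Socs2 values lay far below the pseudocount (0.0140 to 0.191 FPKM), so no Socs2 call was possible in this setting. Cish, whose untreated values also lay below it (0.0692 and 0.0923 FPKM), stood at 2.43 in place of 5.79 and 2.04 in place of 4.95. Without a minimum level 1157 genes were called between untreated libraries.

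In the common LPS effect, 2225 genes passed edgeR's test, 3797 with no expression filter and 4563 with treatment alone. Leaving out 1 library at a time, with treatment alone, gave 2788 to 3063 genes and 4 to 6 SOCS genes (5 with all libraries). The lone library of a treatment is then assumed to vary like the others. Socs4 then ranged from −0.02 to 0.34 log2 units (0.13 with all libraries), at −0.015 without the untreated library titled WT and −0.023 without the LPS library titled WT. The effect of title gave 0 genes, and 2 with no filter. The causes were not tested. With library totals, 48.4% in place of 60.9% of the genes called between untreated libraries and 53.4% in place of 42.9% of those with a different response were higher, and the median of all genes shifted by −0.11 and 0.14. Of 336 member values under alternatives, 295 were classed as unchanged: model effects that kept their call, and ratios that moved by less than their counting error. Another 35, all ratios or differences of responses, moved further. Some of these kept their call, as Socs1 in the WT title with library totals. Others lost it, as Socs2 and Socs5 in the WT title under FPKM. Among the model effects, 3 lost and 1 gained significance. Of all 336 values, the sign changed in 8, among them Socs4 as given above. With library totals it changed in Socs4 and Socs6 in the WT title (−0.17 and −0.31) and Socs2 in the KO title (−0.056). The Socs3 difference of responses changed sign with library totals (0.11) and with DESeq2's size factors (0.024). So did Socs4 in the KO title against the other untreated library (0.15). Depth limits Socs2 and untreated Cish, at 3 to 37 counts, while single libraries limit every comparison of titles.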

Other observations

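2 genes with a SOCS box outside the SOCS family were singled out after their values were seen. Spsb1, whose product directs the inducible nitric oxide synthase to degradation, had 7.39 (titled WT) and 14.3 CPM (titled KO) before LPS, and 21.4 and 50.5 CPM with it. The library titled KO was 1.94 times as high untreated, short of the 2-fold needed for a call, and 2.37 times as high after LPS. Asb2, a substrate receptor for filamins, had 63.4 and 19.1 CPM before LPS and 6.52 and 25.2 CPM with it. The 2 treatments overlapped, and Asb2 did not pass edgeR's test for LPS (−1.41 ± 0.95 log2 units, adjusted p = 0.343). Neither difference between titles has a replicate check.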
